A study of Mus musculus with 9 samples.

Results

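The genes described here encode the respiratory chain of mitochondria, the set of 5 protein complexes of the inner membrane that makes most of a neuron's ATP. Members were all genes whose symbol in the array annotation starts with Nduf (complex I), Sdh followed by a to d (complex II), Uqcr (complex III), Cox4 to Cox8 (complex IV) or Atp5 (complex V). Of 12393 genes that at least 1 probe set names alone, 87 met this rule. They were 34 subunits of complex I, 4 of complex II, 8 of complex III, 16 of complex IV, 17 of complex V and 8 assembly factors that carry the same prefixes (Ndufaf1, Ndufaf3, Ndufaf4, Ndufaf5, Ndufaf7, Sdhaf1, Sdhaf2 and Sdhaf4). Each gene was represented by its brightest probe set over all arrays, so the rule used names and overall brightness, not differences between groups. Values are of that probe set unless another is named. A further 9 symbols that the annotation pairs with a second gene were not analysed here.

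The arrays profiled laser-cut motor neurons from the lumbar spinal cord of mice with spinal muscular atrophy (SMA), a disease of lower motor neurons caused by loss of the SMN protein, and of wild-type mice. There were 3 groups of 3 arrays: wild-type mice given vehicle, SMA mice given vehicle, and SMA mice given a transplant that the labels name NSC. Surgery was done on postnatal day 1 and the mice were killed at 13 days. Each array held the neurons of 1 animal, cut from 16 µm sections in caps of about 100 cells. The labels call the SMA line transgenic, and its alleles were not given in the sources used here. All 9 mice underwent the surgery.

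Complex I takes electrons from NADH and complex II takes them from succinate, both pass them through ubiquinone to complex III, and cytochrome c carries them to complex IV, which reduces oxygen. Complexes I, III and IV pump protons, and complex V, the ATP synthase, uses the gradient. Motor neurons have long axons and a high demand for ATP, and nuclear genes encode most subunits, while a few core subunits are made from mitochondrial DNA. Several complex IV subunits come in tissue forms, one made in most tissues and another made mainly in heart and skeletal muscle, lung or testis.

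Promoters of these genes are known for sites of the nuclear respiratory factors NRF-1 and NRF-2 (the latter the ETS factor GABP), and 73 of the 87 genes had an entry among the RefSeq promoters of GRCm38.p6, with 78 start sites in all. Each window held 300 bases, 250 before and 50 after the start, and was searched on both strands. The ETS letters CCGGAAG stood in 25.6% of members' windows and in 8.86% of all 32851 windows. The pair of NRF-1 half-sites, GCGCA, any base and GCGC in a row, stood in 23.1% against 4.6%, and its palindromic form with T as that base, which the former search includes, in 7.69% against 0.971%. The YY1 letters AAGATGGC were in 11.5% against 2.75%, the Sp1 letters GGGCGG in 44.9% against 35.7%, and TATAAA in 10.3% against 13.6%. Members' windows also had a higher median GC content before the start, 57.4% against 52.4%, and the shares were not adjusted for it. A match is a description of letters, not a bound site. The 250 bases before the start of 4 genes are shown because these genes are described further on and their windows show the arrangement. The 4 were picked by hand. All lie on the minus strand of their chromosome, at chr5:115348959-115349208 for Cox6a1, chr9:50603850-50604099 for Sdhd, chr4:116075071-116075320 for Uqcrh and chr7:30626115-30626364 for Cox6b1. Capitals mark the paired NRF-1 half-sites and the ETS letters, which read CTTCCGG on this strand.
Cox6a1: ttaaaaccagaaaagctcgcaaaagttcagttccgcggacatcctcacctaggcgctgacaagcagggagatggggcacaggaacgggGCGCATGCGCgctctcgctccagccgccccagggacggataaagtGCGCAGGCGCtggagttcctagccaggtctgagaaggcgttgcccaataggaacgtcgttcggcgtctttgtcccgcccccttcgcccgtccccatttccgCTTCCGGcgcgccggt
Sdhd: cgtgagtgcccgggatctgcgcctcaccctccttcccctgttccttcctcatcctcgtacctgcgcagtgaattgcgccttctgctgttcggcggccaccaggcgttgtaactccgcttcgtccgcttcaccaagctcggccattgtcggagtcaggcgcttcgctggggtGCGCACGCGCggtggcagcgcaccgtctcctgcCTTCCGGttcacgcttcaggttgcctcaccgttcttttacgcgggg
Uqcrh: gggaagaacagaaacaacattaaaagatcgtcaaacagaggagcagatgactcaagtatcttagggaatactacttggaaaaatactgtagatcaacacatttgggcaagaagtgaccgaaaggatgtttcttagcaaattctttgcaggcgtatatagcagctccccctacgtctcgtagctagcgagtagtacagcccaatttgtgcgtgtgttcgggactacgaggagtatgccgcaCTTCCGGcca
Cox6b1: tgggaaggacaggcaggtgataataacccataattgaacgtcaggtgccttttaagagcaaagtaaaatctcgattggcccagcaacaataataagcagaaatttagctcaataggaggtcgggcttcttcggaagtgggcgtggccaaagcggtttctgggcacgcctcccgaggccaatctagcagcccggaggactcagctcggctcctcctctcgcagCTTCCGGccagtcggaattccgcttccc
Cox6a1, a complex IV subunit, held the NRF-1 palindrome, a second pair of half-sites and an ETS match close to the start, and Sdhd, a membrane anchor of complex II, held 1 match of each kind. Uqcrh (the hinge protein of complex III) and Cox6b1 (complex IV) held the ETS letters alone, within 30 bases of the start.

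The arrays carried the values of the authors' MAS5 software, an intensity for each probe set on a linear scale, with a trimmed mean of 100.04 on every array. Tests used log2(signal + 16) on 11313 of 22626 probe sets, those in the brighter 50% by mean. Some facts of the whole set of arrays bear on what follows. Transcripts of skeletal muscle were high on SMA 1 and SMA 2, where the summed signal of 27 muscle genes was 3610 and 4209, against 328 to 785 on the other 7 arrays. Acta1, the actin of skeletal muscle, read 1289 and 1414 on those arrays and at most 27.1 elsewhere. Wild type 3 and SMA 3 had the highest signals of the middle 18S ribosomal RNA probe set, 3577 and 3056 against 793 to 2056 elsewhere, and the highest ratios of 3′ to 5′ beta-actin signal, 3.66 and 4.32 against 2.48 to 3.11. Of 11 motor neuron markers, 7 were too dim to test, among them Slc18a3, the vesicular transporter of acetylcholine, at 2.1 to 41.7. Mbp, a myelin gene of oligodendrocytes, read 7832 to 13350. In such bulk samples fewer cells of a type and less RNA per cell cannot be told apart. Smn1, the mouse gene for SMN, was below 5.2 on every array and gave no check of genotype. Xist, a transcript of female cells, had the largest difference of all tested genes between transplanted SMA and wild type, 3.73. Sex was not in the model, and its part in what follows was not tested.

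By their brightest probe sets, respiratory chain transcripts were among the brightest on these arrays, and 79 of the 87 members could be tested. The median member lay at the 95.9th percentile of brightness over all probe sets. All probe sets include the dimmer ones of other genes, so the choice of the brightest raises these percentiles. By complex the median percentile was 95.9 for complex I, 92.7 for II, 96.8 for III, 90.9 for IV and 97.8 for V, and 70.6 for the assembly factors. The brightest members were Ndufa3 in complex I, Sdhb in complex II, Uqcrb in complex III, Cox5b in complex IV and Atp5c1 in complex V. Uqcrb, which binds ubiquinone, read 6985, 6172 and 7535 on the wild-type arrays, 6212, 5598 and 7447 on those of SMA and 6910, 6490 and 7244 after transplantation, so that all groups overlapped. Cox5b read 5287, 4270 and 4274 for wild type, 3842, 3604 and 5540 for vehicle-treated SMA and 4584, 4079 and 5141 for the transplanted mice, again with overlap. Its 3 dimmer tested probe sets were all higher on the transplanted arrays than on every wild-type array. One of them read 818.8, 721.6 and 834.2 for wild type, 828.4, 622.5 and 856.8 for vehicle-treated SMA and 1020, 1060 and 1037 after transplantation. Its transplanted arrays lay above all others, by 0.44 (SE 0.16, limma adjusted p = 0.933) over SMA and 0.39 (SE 0.16, limma adjusted p = 0.739) over wild type. Subunits, with 1 probe set each, summed to between 2.48% and 2.92% of an array's total signal over all probe sets but the controls. The share was 2.81% ± 0.17 (SD, n = 3) in wild type, 2.66% ± 0.16 (SD, n = 3) in SMA and 2.77% ± 0.09 (SD, n = 3) in transplanted SMA. The SD over all 9 arrays on the log2 scale had a median of 0.205 over the 71 tested subunits and 0.268 over all tested probe sets. Ndufb7, a complex I subunit that faces the intermembrane space, had the smallest SD at 0.039, with signals of 1192 to 1305. Ndufb6, also of complex I, varied most at 0.471 and ranged from 177.5 on SMA 1 to 513.8 on wild type 3.

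The 8 members too dim to test were Ndufb1, Ndufs5, Cox7c and 5 tissue forms of complex IV. The form Cox6a2 of heart and skeletal muscle read 37.2, 21.6 and 43.8 on the wild-type arrays, 35.8, 76.5 and 36.8 on those of SMA and 23.6, 16.7 and 24.2 after transplantation. Its highest value was on SMA 2, 1 of the arrays with muscle transcripts, while SMA 1, the other, was within the wild-type range. The muscle forms Cox7a1 and Cox8b stayed at or below 16.9 and 19.0 on all 9 arrays, Cox4i2, the lung form, read 23.4 to 40.8, and Cox6b2, the testis form, 4.3 to 35.5. Their widespread partners Cox4i1, Cox6a1, Cox6b1, Cox7a2 and Cox8a were all in the tested set, and their brightest probe sets overlapped between groups in every comparison. The dimmer tested probe set of Cox6b1 was lower on all transplanted arrays, at 868.1, 919.6 and 925.2, than on the SMA arrays, at 1044, 964.3 and 946.2, with a difference of -0.12 (SE 0.16). Cox7c makes no tissue pair, and neither of its probe sets rose above 14.1.

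Vehicle-treated SMA and wild-type mice were compared to ask whether the disease changed these transcripts. No member passed the test, limma with Benjamini-Hochberg adjustment over all tested probe sets at 0.05, where 0.0442% of all tested probe sets (5 of 11313) passed. The smallest adjusted p of any member's brightest probe set was 0.818 in limma, for Cox8c, and over all 135 tested probe sets of the 79 members it was 0.62, for a second one of Sdha. At an unadjusted p under 0.05 there was 1 member of 79, against 6.04% of all tested probe sets. The groups did not overlap for 4 of 79 members, against 11.4% of all tested probe sets. Ndufa5 and Cox8c were higher on all SMA arrays, as were 5.31% of all tested probe sets, and Ndufs1 and Ndufs8 were lower, as were 6.06%. By this background none of these counts sets the members apart. Over the 135 probe sets 2 had an unadjusted p under 0.05 and 9 separated the groups (6.67%, against 11.4% of all tested probe sets).

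Differences between SMA and wild type were small and mostly below 0. Of 71 subunits, 51 had a negative difference, with a median log2 difference of -0.08, where 49.0% of all tested probe sets were negative and their median was 0.01. Over the brightest tested genes, those with a mean log2(signal + 16) of at least 8.35, 56.9% were negative and the median was -0.03. By complex, 20 of 32 differences were negative in complex I (median -0.08), 3 of 4 in complex II (-0.15), 7 of 8 in complex III (-0.09), 7 of 10 in complex IV (-0.06) and 14 of 17 in complex V (-0.08), and 7 of 8 for the assembly factors (-0.08). No difference of a brightest probe set exceeded 0.5 in size. Leaving out single arrays moved the median both ways. It was -0.02 without SMA 2, with 37 of 71 subunits negative, -0.04 without wild type 1 (45 negative), -0.05 without SMA 1 (47 negative) and -0.14 without wild type 2 (55 negative). Without SMA 1 and SMA 2 together, the arrays with muscle transcripts, 29 of 71 were negative with a median of 0.05. Centring each array on its median moved the median of all tested probe sets from 0.01 to -0.05. It gave 59 of 71 negative subunits, a larger share than the 59.8% of all probe sets that were negative. Of 12 tested markers of oligodendrocytes, 12 had a negative difference in the same comparison, with a median of -0.45, their summed signals being 30810 to 36420 in wild type and 23200 to 41610 in SMA. The summed signals of 6 erythroid genes were 4293 to 6783 on the wild-type arrays, 2361 to 2903 on those of SMA and 2051 to 3057 after transplantation, so that wild type lay above both other groups. Those of 15 neuronal genes were 2842 to 3464, 2115 to 4228 and 2387 to 5667, with overlap. The part of these cell types in the members' differences was not tested.

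The members furthest apart between SMA and wild type were named by the smallest unadjusted p in each direction. Ndufs1, the largest subunit of complex I and a carrier of iron-sulphur clusters, read 635.5, 563.1 and 671.4 in wild type and 556.6, 409.7 and 501.9 in SMA. All SMA arrays lay below all wild-type arrays, the closest being 556.6 and 563.1, and the log2 difference was -0.35 (SE 0.17, limma adjusted p = 0.842). Transplanted SMA, at 468.8, 539.3 and 511.4, also lay wholly below wild type. Ndufc1, a small accessory subunit of complex I, read 990.9, 1182 and 1258 in wild type and 884.7, 775.0 and 1064 in SMA, overlapping through SMA 3. Its difference was -0.33 (SE 0.16). Its dimmer probe set read 258.9, 268.4 and 266.4 in wild type and 183.6, 229.3 and 196.2 in SMA, with no overlap and a difference of -0.36 (SE 0.17). Uqcr11, a small subunit of complex III, read 856, 729 and 1068 against 737, 642 and 720, with 1 SMA array above the lowest wild-type array and a difference of -0.32 (SE 0.20). On the higher side stood Cox8c, treated further on, Ndufa7 at 0.21 and Ndufa6 at 0.16, both accessory subunits of complex I and both overlapping. Ndufa4, counted here with complex I by its name although its protein is now placed in complex IV, differed by 0.04. Of the other core subunits of complex I, Ndufv2 differed by 0.13, Ndufs3 by -0.10, Ndufs7 by -0.18 and Ndufs8 by -0.17. Ndufv1, which binds NADH, differed by -0.08, and between -0.62 and 0.19 over the alternative settings. Its 2 other tested probe sets differed by 0.23 (SE 0.18) and 0.35 (SE 0.17), the latter with all SMA arrays above wild type.

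**Figure D1:**
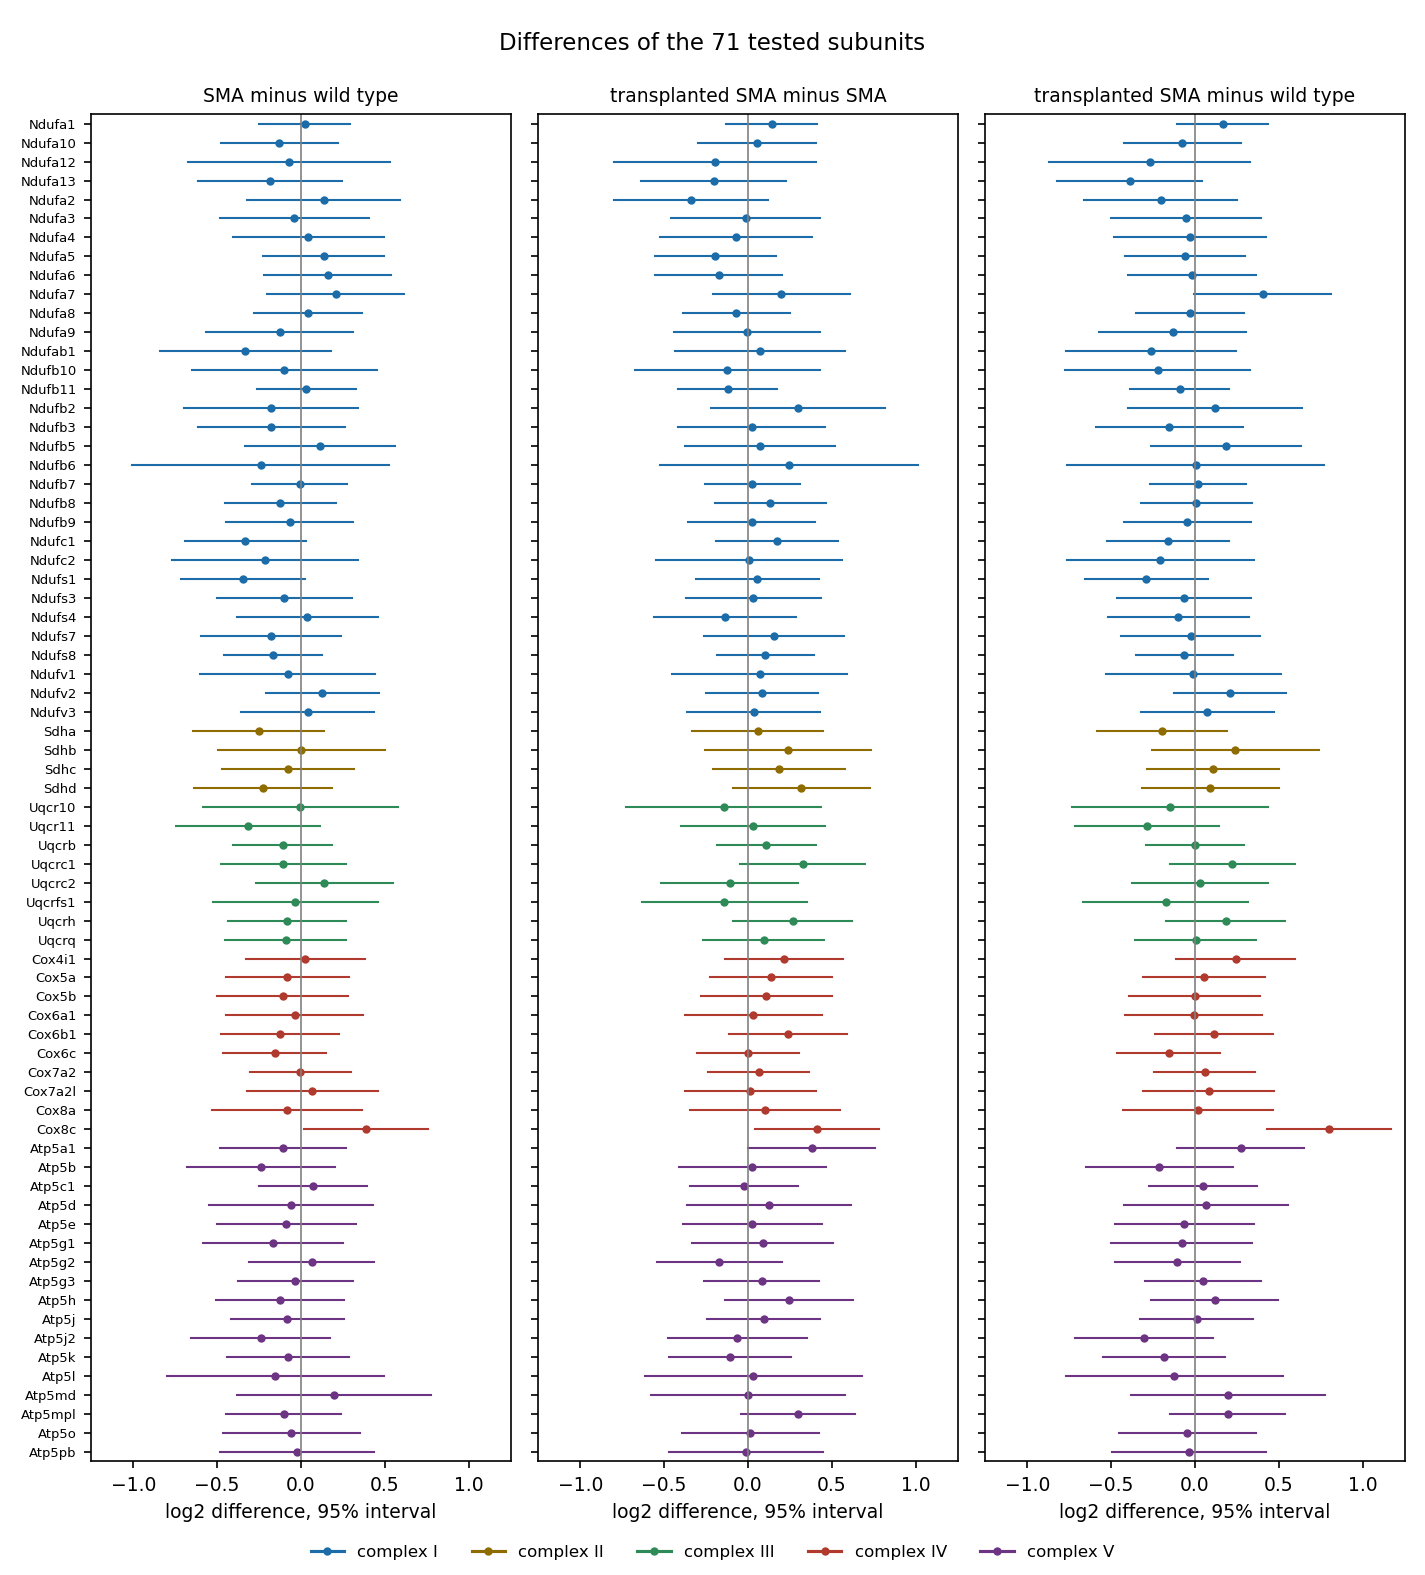
Log2 differences of the 71 tested subunits in the 3 comparisons (points) with 95% intervals from limma (lines), on an axis in log2 units, coloured by complex. Most points lie within 0.5 of 0 in every panel, and Cox8c, with 0.80 between transplanted SMA and wild type, is furthest from 0.

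The transplant was assessed by setting transplanted against vehicle-treated SMA mice. No member passed the limma test, where 0.0% of all tested probe sets passed, and the smallest adjusted p of a member was 0.933. At an unadjusted p under 0.05 there were 2 members, Cox8c and Atp5a1, of 79, against 4.77% of all tested probe sets. Over the 135 probe sets there were 4, the others being 2 of Cox5b. Of the 135, where a gene can count more than once, 14 separated the groups (10.4%, against 9.11% of all tested probe sets), 11 higher and 3 lower. Groups did not overlap for 8 of 79 members, against 9.11%. Ndufa1, Ndufa7, Sdhd, Uqcrh, Cox5a, Cox8c and Atp5mpl were higher on all transplanted arrays (4.43% of all tested probe sets) and Ndufa2 was lower (4.68%). A dimmer probe set of Ndufa7 went the other way without overlap, at 276.6, 268.2 and 238.9 in SMA against 209.9, 236.5 and 208.6 (-0.24, SE 0.16). Its further tested probe sets differed by -0.08 and 0.01, and the dimmer ones of Cox5a by -0.07 and 0.35, all overlapping. Of 71 subunits 50 had a positive difference, with a median of 0.05. Negative were 29.6% of the subunits and 49.7% of all tested probe sets, the latter with a median of 0.00. Medians were 0.03 in complex I, 0.21 in complex II, 0.06 in complex III, 0.11 in complex IV and 0.03 in complex V, with 4 of 4 positive in complex II and 9 of 10 in complex IV. This comparison uses the same SMA arrays as the former, so an array that is low among the SMA arrays enters both with opposite sign. Single arrays again moved the median both ways. It was 0.02 without SMA 2, with 37 of 71 subunits positive, 0.04 without transplanted 2 (44 positive), 0.09 without transplanted 1 (53 positive) and 0.12 without SMA 3 (49 positive), and 0.11 with array weights. Without SMA 1 and SMA 2, 28 were positive, with a median of -0.06. Of 12 tested markers of microglia, 12 had a negative difference here, with a median of -0.81 and sums of 5683 to 11840 against 10710 to 12800, and their part was not tested.

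Atp5a1, the alpha subunit of the ATP synthase head, read 2261, 1750 and 1431 on the SMA arrays against 2093, 2524 and 2377 on the transplanted ones. The highest SMA array lay within the transplanted range, and the difference was 0.38 (SE 0.17, limma adjusted p = 0.933). Its other bright probe set differed by 0.20. Wild type, at 1953, 1909 and 1903, was close together and wholly below the transplanted arrays. Atp5mpl, a small membrane subunit of the ATP synthase, read 365.1, 305.0 and 371.7 in SMA against 448.9, 406.4 and 433.0, with no overlap and a difference of 0.30 (SE 0.15). Ndufa2, an accessory subunit of complex I, read 451.5, 521.6 and 760.4 in SMA against 446.7, 431.6 and 448.8, with no overlap, although SMA 1 at 451.5 and transplanted 3 at 448.8 were close. Its difference was -0.34 (SE 0.21), and SMA 3 was the highest of all 9 arrays. Ndufa5 and Ndufa13 followed on the lower side with -0.19 and -0.20, both overlapping.

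Complex II, the smallest complex and the only one without a mitochondrially encoded subunit, was covered by all 4 of its genes. Sdha, the flavoprotein that oxidises succinate, read 995.2, 808.9 and 1133 for wild type, 719.8, 779.8 and 952.5 for vehicle-treated SMA and 777.4, 910.2 and 853.8 for the transplanted mice. All 3 groups overlapped. Its dimmer probe set read 712.9, 618.8 and 715.2 for wild type, 460.2, 460.0 and 511.1 for vehicle-treated SMA and 647.7, 514.4 and 617.1 for the transplanted mice. Here all SMA arrays lay below wild type, by -0.50 (SE 0.16, limma adjusted p = 0.62, unadjusted 0.00894), and below the transplanted arrays, with a difference of 0.30 (SE 0.16). The transplanted arrays overlapped wild type. Sdhb, the iron-sulphur subunit, read 1405, 1386 and 1152 on the wild-type arrays, 1856, 910.3 and 1330 on those of SMA and 1586, 1453 and 1615 after transplantation. Its SMA arrays held both the highest and the lowest of the 9 values. Sdhc and Sdhd anchor the complex in the membrane. Sdhc read 232.8, 263.7 and 279.9 for wild type, 215.9, 221.7 and 300.8 for vehicle-treated SMA and 253.2, 285.1 and 300.2 for the transplanted mice, with overlap throughout. Its dimmer probe set read 95.1, 119.6 and 107.6 for wild type, 137.5, 113.6 and 160.3 for vehicle-treated SMA and 163.6, 127.9 and 124.2 for the transplanted mice. There SMA differed from wild type by 0.30 (SE 0.18), with overlap. Transplanted SMA differed from wild type by 0.32 (SE 0.18), without overlap. Sdhd read 313.0, 254.5 and 195.6 on the wild-type arrays, 211.6, 229.0 and 194.8 on those of SMA and 260.1, 270.5 and 271.7 after transplantation. Its transplanted arrays lay above all SMA arrays, with a difference of 0.32 (SE 0.19, limma adjusted p = 0.933), and within the wild-type range. Its other tested probe set, with signals of 25.6 to 76.5, differed by -0.19 (SE 0.34) in the same comparison. The median of the 4 genes was -0.23 and -0.26 relative to the wild-type mean on SMA 1 and SMA 2 and 0.00 on SMA 3. Single genes did not all follow this median, since Sdhb was highest on SMA 1 and Sdhd was lowest on SMA 3.

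**Figure D2:**
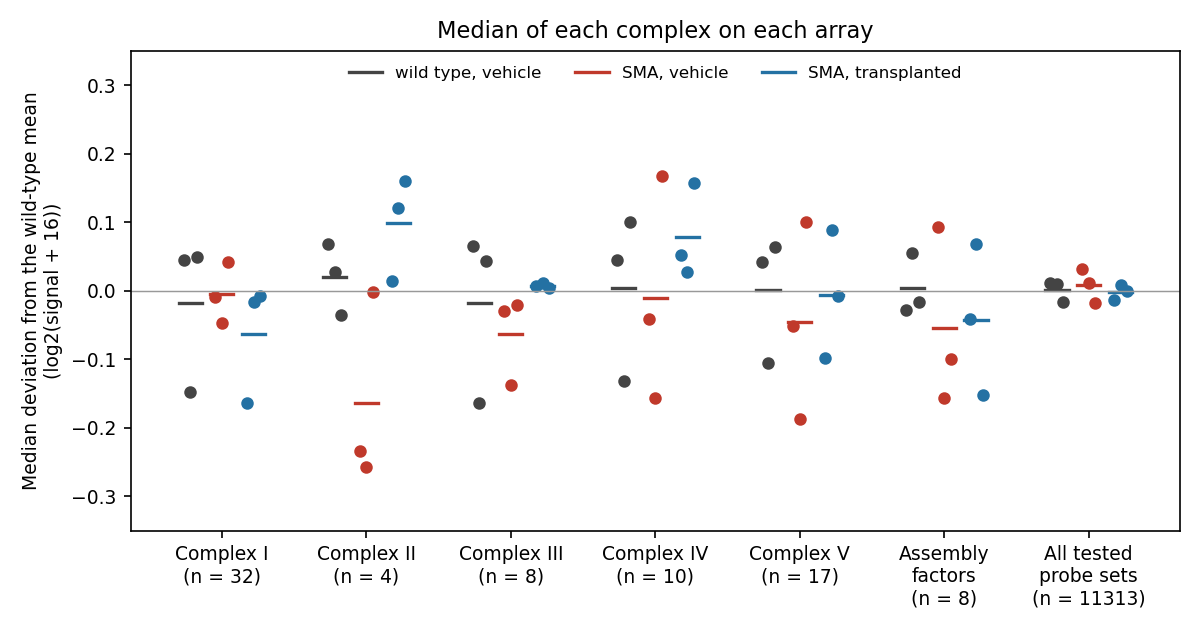
Median over the tested genes of each complex of the deviation from the wild-type mean, in log2(signal + 16), with 1 point for each array and a bar for each group's mean over its 3 arrays. In complex II 2 SMA arrays lie at -0.23 and -0.26, below every other array, while in complex I the arrays of the 3 groups overlap, wild type from -0.15 to 0.05, SMA from -0.05 to 0.04 and transplanted SMA from -0.16 to -0.01.

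Transplanted SMA and wild type were compared last, and this comparison shares 1 group with each of the former. No member passed the limma test, where 0.0% of all tested probe sets passed, and the smallest adjusted p of a member was 0.30. At an unadjusted p under 0.05 there was 1 member of 79, Cox8c, against 6.55% of all tested probe sets. Over the 135 probe sets there were 3, the others being dimmer ones of Cox5b, higher by 0.39, and of Ndufb6, which was lower. That of Ndufb6 read 366.3, 324.8 and 356.2 in wild type against 198.0, 232.8 and 282.0, without overlap (-0.54, SE 0.19). The brightest probe set of Ndufb6 differed by 0.004, with overlap. Of the 135, where a gene can count more than once, 24 separated the groups (17.8%, against 14.1% of all tested probe sets), 18 higher and 6 lower. Groups did not overlap for 12 of 79 members, against 14.1% of all tested probe sets. Higher on all transplanted arrays were Ndufa1, Ndufa7, Ndufv2, Sdhb, Uqcrc1, Cox8c, Atp5a1, Atp5mpl, Ndufaf1 and Sdhaf4 (7.11% of all tested probe sets), and lower were Ndufs1 and Atp5j2 (7.04%). Of 71 subunits 32 had a positive and 39 a negative difference, with a median of -0.02, where 51.5% of all tested probe sets were negative. Complex I had 23 of 32 negative (median -0.06), whereas the medians were 0.10 in complex II, 0.00 in complex III, 0.06 in complex IV and -0.04 in complex V. Without wild type 1, 31 of 71 were negative with a median of 0.02, and without wild type 2, 48 with a median of -0.07. Centring on array medians gave 53 of 71, a larger share than the 64.1% of all probe sets that were then negative.

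Ndufa13, a complex I subunit also known as GRIM-19, had the lowest difference of a brightest probe set, -0.39 (SE 0.20, limma adjusted p = 0.773). It read 3337, 2841 and 3408 for wild type, 3080, 2185 and 3265 for vehicle-treated SMA and 2347, 1997 and 3054 for the transplanted mice, so that transplanted 3 lay within the wild-type range. Ndufa7 had the highest difference among complex I subunits, 0.40 (SE 0.19). Its values were 391.2, 249.9 and 310.9 on the wild-type arrays, 387.2, 325.8 and 378.3 on those of SMA and 407.2, 401.6 and 447.2 after transplantation, and its other tested probe sets differed by -0.13 to 0.14. Ndufaf5, an assembly factor that modifies a complex I subunit, had a difference of -0.33, and 1 wild-type array at 165.3 stood above the rest, which read 86.1 to 119.2.

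Cox8c differed most of all members. It encodes a form of complex IV subunit 8 known from testis and had a single probe set on the array. Its signal was 39.1, 52.4 and 43.1 for wild type, 63.2, 54.8 and 72.7 for vehicle-treated SMA and 89.4, 81.8 and 97.4 for the transplanted mice. The groups lay in this order with no overlap, which held for 1 of 71 subunits (1.41%) and for 0.0796% of all tested probe sets. Log2 differences were 0.39 (SE 0.17) between SMA and wild type, 0.41 (SE 0.17) between transplanted SMA and SMA, and 0.80 (95% interval 0.43 to 1.17) between transplanted SMA and wild type. The last had an unadjusted p of 0.000609 in limma and an adjusted p of 0.30, ranking 23 of 11313, and so did not pass. Over the alternative settings this difference lay between 0.50 and 0.99 and its adjusted p between 0.144 and 0.848. The signals were low, not far above the 33.5 that a probe set needed on average to enter the test. The widespread form Cox8a read 145.8 to 221.8 in wild type and 151.4 to 226.2 after the transplant, with SMA at 159.2 to 191.6, and its groups overlapped.

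**Figure D3:**
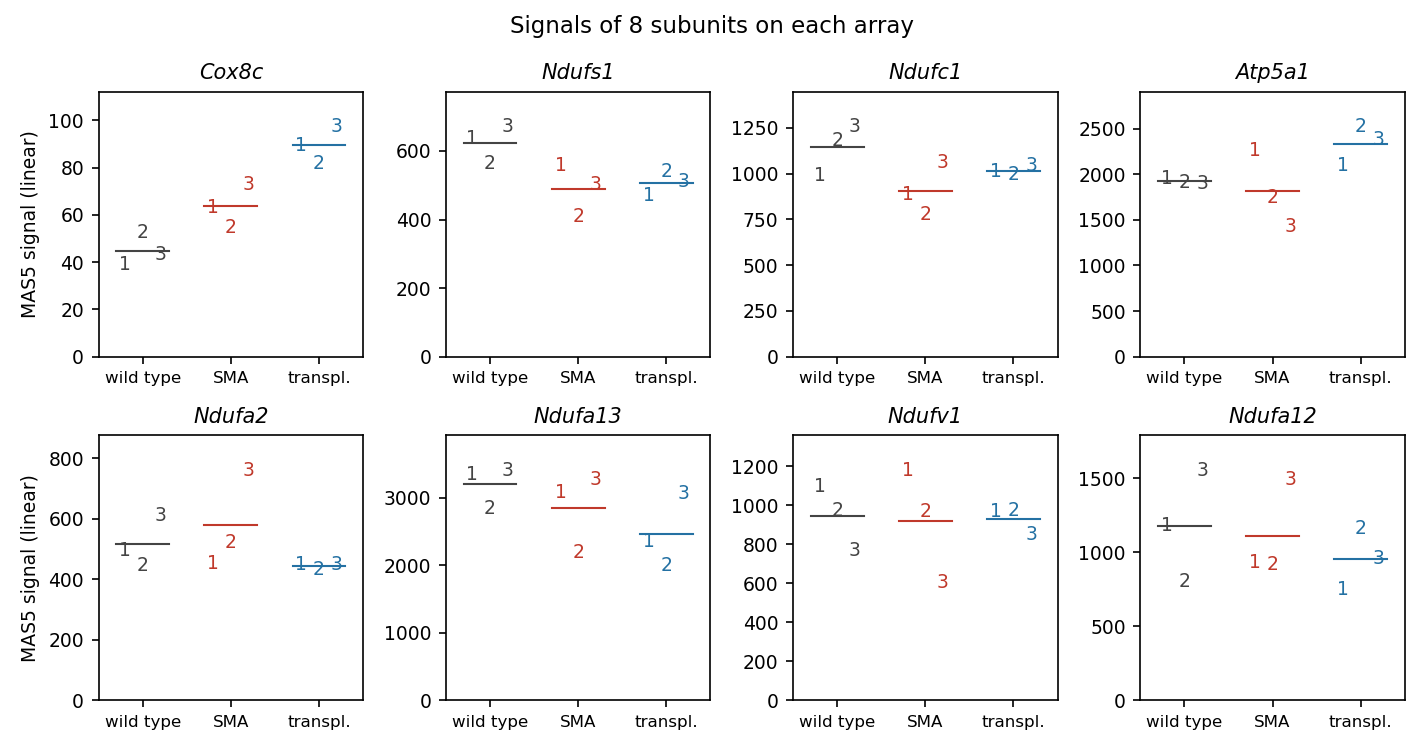
MAS5 signal on a linear scale from 0 of 8 subunits on each array, where digits are the array numbers within a group and lines the group means. The 3 groups of Cox8c are separate, at means of 44.9, 63.6 and 89.5, whereas the others overlap in at least 1 comparison, and in Ndufa12 and Ndufv1 the arrays numbered 3 of wild type and SMA stand together.

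For most members the data bounded the change of the brightest probe set to less than 1 log2 unit, though often not to less than 0.5. The median SE over members was 0.18, against 0.21 over all tested probe sets. The 95% interval lay within 1 log2 unit of 0 on both sides for 98.7% of members in each comparison and for 87.2% to 88.0% of all tested probe sets. The exceptions were Ndufb6 in both comparisons with SMA and Cox8c between transplanted SMA and wild type. Within 0.5 of 0 on both sides lay 50.6%, 46.8% and 50.6% of members in the 3 comparisons, against 20.1%, 19.2% and 18.9% of all tested probe sets. Differences under the size of those intervals were not detectable with 3 arrays a group. Where 41 genes had at least 2 tested probe sets, these differed in sign for 14, 21 and 21 genes, and the median gap between a gene's probe sets was 0.12, 0.20 and 0.21. The widest gap, 0.77, was in Cox5a between SMA and wild type, where its dimmest tested probe set read 610.6, 546.8 and 766.9 for wild type and 208.7, 517.7 and 377.0 for SMA, without overlap (-0.85, SE 0.39), and its brightest differed by -0.08.

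Single arrays also stood apart. The median subunit lay at 0.04, -0.13 and 0.06 from the wild-type mean on the wild-type arrays, at -0.05, -0.18 and 0.05 on the SMA arrays, and at -0.07, 0.02 and 0.00 on the transplanted arrays, while that of all tested probe sets stayed between -0.02 and 0.03. That of the 1451 brightest tested genes, the nearer background, ran from -0.06 on SMA 2 and transplanted 1 to 0.03 on wild type 1. SMA 2 was the lowest of the 9 arrays for 19 of 71 subunits and the highest for 0, against 11.9% and 12.5% of all tested probe sets and 16.5% and 8.27% of the 1451 brightest tested genes. SMA 1 and SMA 2 were together below the other 7 arrays for 8 subunits (11.3%, against 4.49% of all tested probe sets), namely Atp5e, Atp5h, Atp5j, Cox5b, Ndufab1, Ndufb2, Ndufc1 and Sdhc, and together above them for 0. Wild type 3 and SMA 3, the arrays with high 18S and actin ratio, were together above the other 7 for 10 subunits (14.1%, against 4.59%) and together below for 3 (4.23%, against 7.23%). Ndufa12, an accessory subunit of complex I, was of the former kind, at 1556 and 1492 against 750 to 1179 elsewhere. Ndufv1 was of the latter, at 765.5 and 603.6 against 851.2 to 1180. Over the 71 subunits the deviations of these 2 arrays had a Pearson correlation of 0.49, against 0.30 over all tested probe sets, a description over genes that share the arrays' depth and labelling. The part of 18S and of the actin ratio in these patterns was not tested.

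**Figure D4:**
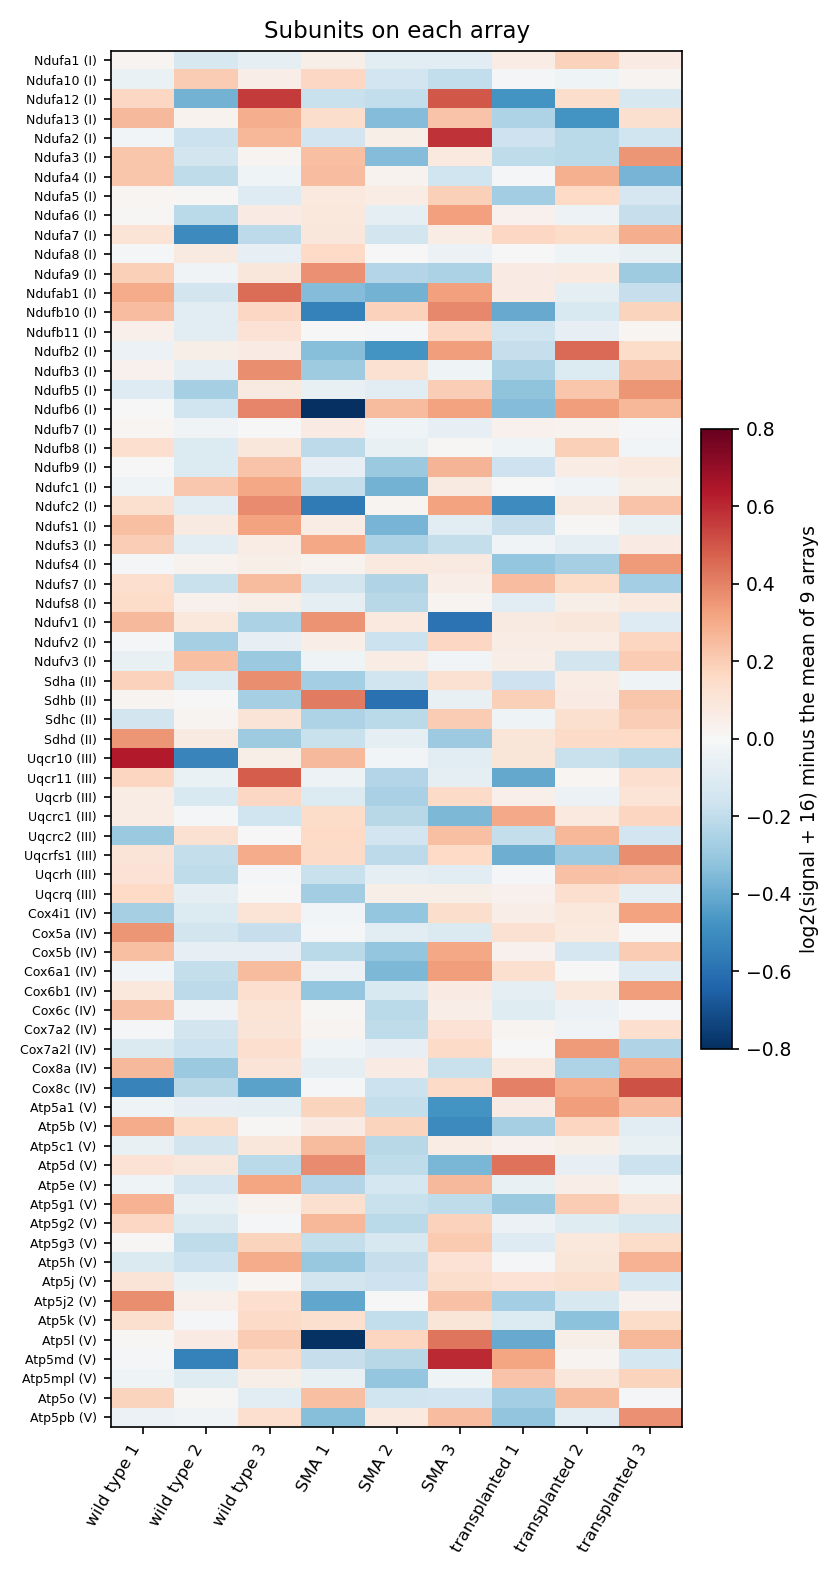
Log2(signal + 16) of the 71 tested subunits (rows, complex in brackets) on the 9 arrays (columns), each minus its mean over the 9 arrays. Blue cells predominate in the column of SMA 2, which was lowest for 19 subunits. Only the row of Cox8c separates wild type, SMA and transplanted SMA in this order. A single group stands apart in some other rows, such as wild type in Ndufs1 and transplanted SMA in Atp5mpl.

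Members with the promoter letters described above were compared with those without. Of 20 tested genes with CCGGAAG, 18 had a negative difference between SMA and wild type (median -0.09), against 32 of 47 without it (median -0.06). Between transplanted SMA and SMA, 1 of 20 was negative (median 0.10) against 20 of 47 (median 0.02), and between transplanted SMA and wild type 8 of 20 (median 0.01) against 32 of 47 (median -0.05). The first 2 comparisons share the SMA arrays, and the split was made after the differences were known, so it is given with no test. The 4 genes whose promoters are printed had differences between transplanted SMA and SMA of 0.03 (Cox6a1), 0.32 (Sdhd), 0.27 (Uqcrh) and 0.24 (Cox6b1). They were picked by hand and do not stand for the 20 holders of CCGGAAG. Sdhd and Uqcrh had the highest differences of these 20, and Cox6b1 was above their median of 0.10. Uqcrh, which read 311.9, 335.1 and 332.3 in SMA against 353.1, 420.0 and 418.0 after the transplant, was without overlap, and Cox6b1 was not, at 2937, 3342 and 3807 against 3456, 3862 and 4598. The other letters gave other splits. For the pair of NRF-1 half-sites, 10 of 16 holders and 40 of 51 others were negative between SMA and wild type, 8 and 13 between transplanted SMA and SMA, and 10 and 30 between transplanted SMA and wild type. For YY1 8 of 9 holders were negative (median -0.12), then 5 (median -0.01) and 7 (median -0.05), in the same order. For the Sp1 letters 22, 10 and 18 of 33 holders were negative, and for TATAAA 4, 1 and 3 of 6.

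Genes that serve the chain gave no call either. Lists of the citric acid cycle (17 tested), electron carriers with cytochrome c and c1 (13), other assembly factors (26), mitochondrial DNA and biogenesis (13), carriers and porins (10), import and chaperones (22) and fission and fusion (10) had 0 genes past the limma threshold in each comparison. At an unadjusted p under 0.05 they had 1, 2, 1, 0, 0, 1 and 1 genes between SMA and wild type, 0, 2, 0, 0, 0, 2 and 0 between transplanted SMA and SMA, and 1, 1, 1, 0, 1, 1 and 1 between transplanted SMA and wild type, where 6.04%, 4.77% and 6.55% of all tested probe sets had one. Between SMA and wild type 10 of 13 electron carriers were negative (median -0.16), 19 of 26 other assembly factors (-0.12), 17 of 22 import genes (-0.06) and 9 of 17 genes of the citric acid cycle (-0.06), against 49.0% of all tested probe sets (0.01). Cyc1, the cytochrome c1 of complex III that the naming rule leaves out, read 1728, 1590 and 1595 on the wild-type arrays, 1618, 1064 and 952.2 on those of SMA and 1470, 1276 and 1488 after transplantation. SMA 1 lay within the wild-type range, and the difference was -0.47 (SE 0.19, limma adjusted p = 0.793). Bcs1l, which inserts the Rieske protein into complex III, read 80.0, 81.5 and 85.5 in wild type and 50.2, 35.6 and 56.2 in SMA, without overlap, with a difference of -0.65 (SE 0.19, limma adjusted p = 0.568). The Rieske protein itself, Uqcrfs1, differed by -0.03. Cyc1 and Bcs1l do not stand for the lists, whose extremes lay on both sides of 0. Between SMA and wild type, Chchd3 differed by -0.57 and Timm17a by -0.55, and Idh2 by 0.51 and Timm44 by 0.39. Between transplanted SMA and SMA, Lonp1 differed by 0.80 and Coq4 by 0.63, and Etfdh by -0.43 and Slc25a20 by -0.41. Among mitochondrially encoded genes only ND5, of complex I, was analysed here, and its values were 5147, 5258 and 6753 for wild type, 4472, 4563 and 7091 for vehicle-treated SMA and 4507, 4630 and 6482 for the transplanted mice. In every group array 3 was the highest, as it was in the mean signal of the hybridisation controls (592.8, 700.3 and 623.1), and group differences were -0.11, -0.03 and -0.14, each with an SE of 0.21.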

How the data were processed

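Values were MAS5 signals, deposited by the authors as a linear intensity for each of 22690 probe sets on 9 arrays, scaled to a common trimmed mean, as the submitters' processing notes name the software and the values show the scaling. RNA had been amplified by a double procedure, per the labels' protocols, which favours transcript 3′ ends. The 64 control probe sets were left out and log2(signal + 16) was taken. The brighter 50% of probe sets by mean over 9 arrays (11313) were fitted with limma 3.58.1 in R 4.3.3 (1 mean per group, eBayes with trend, two-sided, Benjamini-Hochberg over all tested probe sets, threshold 0.05). The residual degrees of freedom were 6 and the prior degrees of freedom 4.93. The table paired 20380 probe sets with 1 symbol, 691 with several and 1555 with none, and only the first named a gene. All 87 members matched RefSeq by gene ID. Named members were those past the threshold, the 3 with the smallest unadjusted p in each direction and comparison, the brightest of each complex, the core subunits and the tissue pairs of complex IV; further genes, named as not overlapping or as extremes of an array, were picked once values were known. The members, lists and promoter groups were chosen with earlier results of these data known. Scripts were tested on simulated data. Each array was 1 animal, so the spread includes animal and technical variation, and the number of arrays limits the precision.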

Additional observations from a re-analysis of the deposited data

How the results depend on the processing

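No member was called in any comparison under any of the alternatives tried. Of 2718 values of named members 181 had another sign, but many of the 2718 could not change. Settings that altered only the variance fit, the threshold or the replicate block, or used the 6 arrays alone, left every difference as it was. An array left out does not touch the comparison between the other groups. The count therefore does not measure how stable the signs were. The number of probe sets called moved more. Between SMA and wild type it was 5, 2 with the brighter 30% tested and, under settings added after the data were seen, 0 without SMA 1 and SMA 2, 14 without the arrays numbered 3 and 11 without wild type 3 and SMA 3. Leaving out 1 array at a time gave 2 to 13. Between transplanted SMA and SMA it was 0, then 6 without the arrays numbered 3, 7 without wild type 3 and SMA 3, and 0 to 4 leaving out 1 array. Between transplanted SMA and wild type it was 0, then 8 with the 6 arrays alone, 8 with array weights, 2 with a pseudocount of 1, 5 at a threshold of 0.10, 8 without SMA 1 and SMA 2, 4 without the arrays numbered 3, 6 without wild type 3 and SMA 3, and 0 to 7 leaving out 1 array. The cause was not tested.

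Leaving out SMA 1 and SMA 2 leaves 1 SMA array whose spread is assumed to be that of the other groups. Medians between SMA and wild type then became 0.023 over all members, 0.042 in complex I, -0.0017 in complex II, 0.17 in complex IV and 0.10 in complex V. Between transplanted SMA and SMA they became -0.068 in complex I, 0.057 in complex II, -0.031 in complex IV and -0.10 in complex V. The latter's median for complex II was 0.075 to 0.26 leaving out 1 array, lowest without SMA 2, and complex V was 0.080 between transplanted SMA and wild type without the arrays numbered 3. Complex III lay between -0.17, without wild type 2, and -0.020 between SMA and wild type. Of 459 medians 11 moved by at least the spread between arrays. That spread, 0.082 to 0.124, was larger than most of the medians themselves, and several settings cannot move a median. The count is thus no measure of how stable the medians were.

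Array numbers were not taken to pair the samples, since the labels tie them to nothing shared. The data held a hint of something shared. Of 9 same-number correlations of deviations, which ran from -0.083 to 0.453, 6 were over 0.1, against 4 of 18 for different numbers. Of the same 9, 8 were above 0 (mean 0.15, against -0.074 for different numbers). Those of arrays 3 were 0.136 to 0.453, and 6 of 9 arrays correlated best with their own number. With the number as a replicate block 5, 0 and 0 probe sets and 0 members were called, and 1, 3 and 3 members had an unadjusted p under 0.05.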
